A study of Mus musculus with 2 samples.

Results

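The tissue kallikreins Klk5, Klk6, Klk7, Klk8, Klk10, Klk11, Klk13 and Klk14 and the protease inhibitor gene Spink5 were examined in 2 cell populations sorted from the hair follicles of mouse pups. A gene was a member if a probe set was annotated with its symbol alone. This held for 8 of the 9 listed genes, with 1 probe set each, among 18193 genes so annotated. No such probe set was found for Klk14, so it has no signal here and enters only the gene order and the promoter counts. The family was chosen by its signals on these same 2 arrays, so its values are a description and carry no test. The early bulge sample held follicle cells from back skin at postnatal day 4 that were bright for both EGFP and RFP. Cells bright for RFP and without EGFP made up the sample of non-bulge outer root sheath (ORS), the sheath of keratinocytes around the hair outside the bulge. The CD-1 pups behind both samples carried 2 transgenes, K14-RFP, driven by a keratin 14 promoter active in basal keratinocytes, and Sox9-EGFP, a reporter for a transcription factor of follicle stem cells. The number of pups behind each sample is not given in the labels. Epidermal sheets had been peeled off before sorting in both cases, and the sort left out dead cells, by DAPI, and big differentiated ones, by side scatter.

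Tissue kallikreins are secreted serine proteases that are made as inactive precursors and are switched on by trimming of a short propeptide, often by another kallikrein. In the outer epidermis they cut the proteins that hold cornified cells together, so that these cells can be shed. Spink5 encodes LEKTI, an inhibitor with many Kazal-type domains that restrains several of them, and its loss in people causes Netherton syndrome, in which the skin barrier fails. In the follicle the shedding of cells takes place in the upper part and in the hair canal, while the bulge and the lower outer root sheath are deeper and keep a basal character.

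The arrays gave 1 linear MAS5 signal per probe set, and each population was measured on 1 array. There is therefore no replicate spread, no test and no p-value for any ratio below. A signal of 57.8, the 40th percentile of the pooled signals, served as a floor beneath which signals were not ordered. A gene was counted as measured when at least 1 array reached it, which held for 13252 genes. The 3 TrpnX negative control probe sets reached at most 24.6 in early bulge and 28.1 in ORS. Where a gene had several measured probe sets, their log2 ratios differed with an SD of 0.57 over 10844 pairs, which is spread between probe sets and not between animals. No member had a 2nd probe set. The Sox9 transcript, which checks the sorting labels, had a signal of 4061 in early bulge and 676.1 in ORS, a log2 ratio of 2.59, while its other two probe sets had 1.07 and 0.30.

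Each of the 8 members with a probe set was brighter in early bulge than in ORS. By the floored ratio Klk5, Klk7, Klk8, Klk10, Klk11 and Klk13, 6 members, differed by 2-fold or more in favour of early bulge, and 0 did so in favour of ORS. The shares of all measured genes past 2-fold were 7.30% towards early bulge and 4.78% towards ORS. Past 4-fold stood 3 members, Klk5, Klk7 and Klk8, all towards early bulge, where 1.87% of measured genes passed that line, against 1.32% towards ORS. The family was chosen from this very contrast, so nothing is read from these counts. Klk5, Klk7 and Klk13 reached the floor on both arrays. The other 5 reached it on the early bulge array alone and so could only come out higher there, and their folds are lower bounds. Among all 1187 genes at the floor on the ORS array alone, 17.1% had a bound of at least 2-fold. Fewer cells making a transcript and less of it per cell cannot be told apart in such sorted pools.

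**Figure D1:**
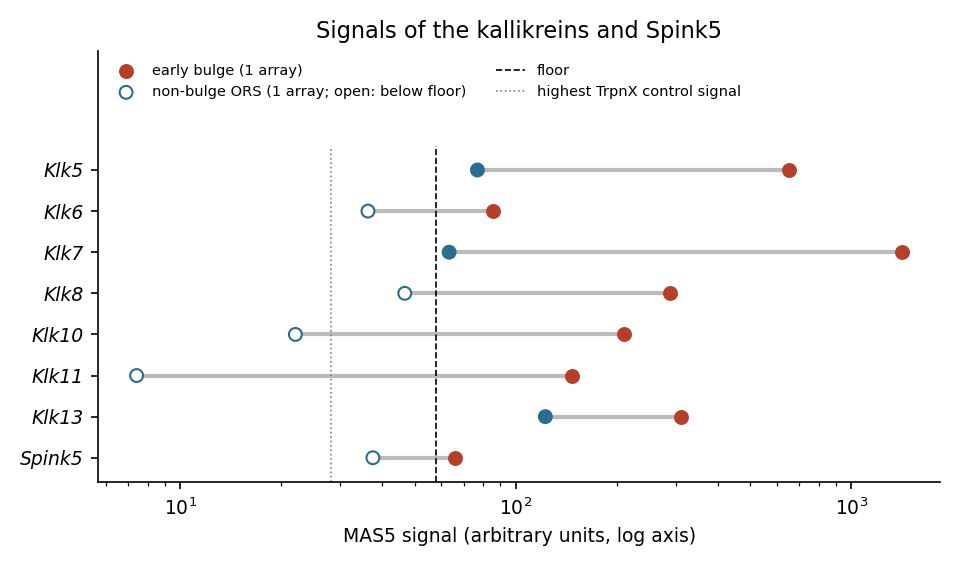
Signals of the 8 members on the early bulge array (red) and the ORS array (blue, open where below the floor), on a log axis in arbitrary MAS5 units, 1 array each. The dashed line is the floor of 57.8 and the dotted line the highest TrpnX control signal, 28.1; all 8 early bulge points lie to the right of the floor and 5 of the ORS points to its left.

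Klk7 had the largest ratio of the family. It encodes the chymotrypsin-like enzyme of the cornified layer, which degrades corneodesmosin and desmocollin 1. Its probe set, 1423542_at, had a signal of 1411 in early bulge and 63.3 in ORS, a 22.3-fold difference and a log2 ratio of 4.48. The ORS signal stood just above the floor. By this ratio Klk7 ranked 18 from the top among the 13252 measured genes. Genes at the floor on the ORS array were ranked by their lower bounds, so this is the highest place Klk7 could hold.

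Klk5 encodes a trypsin-like protease that can activate itself and the precursor of Klk7, and it is a main target of LEKTI. Its probe set, 1429230_at, had a signal of 650.8 in early bulge and 76.9 in ORS. The early bulge signal was 8.47-fold higher, a log2 ratio of 3.08. By that ratio Klk5 ranked at best 75 from the top, again with bounds among the genes ranked. The ORS signal again lay close to the floor.

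Klk13, a further trypsin-like kallikrein, was the one member with an ORS signal well clear of the floor. Probe set 1456539_at had a signal of 310.8 in early bulge and 122.5 in ORS. The difference was 2.54-fold, a log2 ratio of 1.34. The 3 members above the floor on both arrays thus spanned ratios from 2.54-fold to 22.3-fold, with a median log2 ratio of 3.08, beside a median of 0.01 over the 11534 genes above the floor on both arrays.

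Klk8 encodes neuropsin, a trypsin-like protease known from the hippocampus and from epidermis. Probe set 1419722_at had a signal of 288.4 in early bulge and 46.7 in ORS, at least a 4.99-fold difference. Klk10 was first described in people, as a gene of normal breast epithelium that is lost in breast cancer cells. Its probe set, 1460236_at, had a signal of 209.5 in early bulge, at least 3.62-fold above ORS. The ORS signal of Klk10, 22.04, was 0.783 times the highest TrpnX control signal there. Both genes were thus clear of the floor on the early bulge array and below it on the ORS array.

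Klk11 encodes a trypsin-like protease also found in brain and prostate. Probe set 1419201_at had a signal of 147.4 in early bulge and 7.42 in ORS. The ORS signal of Klk11 was 0.264 times the highest control signal, so it was not ordered, and the difference is given as at least 2.55-fold. The quotient of the bare signals, 19.9, would put Klk11 beside Klk7, but it rests on that control-level value.

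Klk6 and Spink5 were dim on both arrays. Klk6 encodes neurosin, a trypsin-like protease of brain and skin. Its probe set, 1448982_at, had a signal of 85.6 in early bulge and 36.3 in ORS, a bound of 1.48-fold. Spink5, the inhibitor, had a signal of 65.8 in early bulge and 37.5 in ORS on probe set 1430567_at, a bound of 1.14-fold. Its early bulge signal was 1.14 times the floor, and with both signals this low the size of the difference could not be measured.

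**Figure D2:**
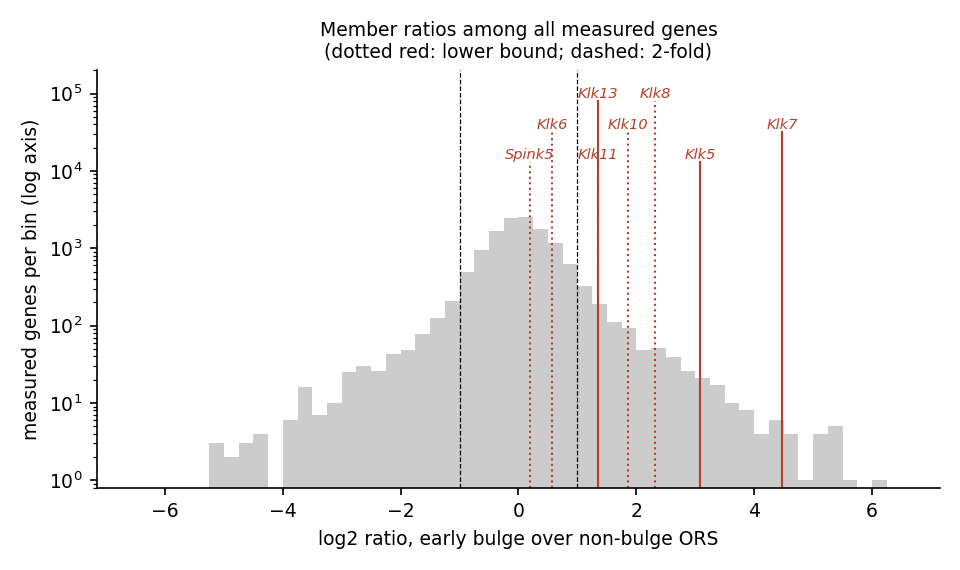
Histogram of the log2 ratio, early bulge over ORS, of the 13252 measured genes in narrow bins of equal width, with the count per bin on a log axis. Red lines mark the 8 members, dotted where the ratio is a lower bound, and dashed black lines mark 2-fold; Klk7 at 4.48 and Klk5 at 3.08 lie far into the right tail, while the bound of Spink5, 0.19, lies near the centre.

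The size of several ratios depended on the floor. With the floor at the 60th percentile of signals, Klk6, Klk11 and Spink5 were no longer measured. The ORS signals of the other 5 were then all below the floor, so their values became lower bounds, with log2 bounds of 0.75 for Klk8, 0.29 for Klk10 and 0.85 for Klk13. Klk7 and Klk5 stayed at least 2-fold higher in early bulge under each of 9 alternatives, but several of these could not change them. A lower floor or none left both as they were, since both reached the floor on both arrays. Averaging over probe sets, or leaving out those with the suffix a, s or x, could change no member, each having 1 plain probe set. Log2 ratios or bounds ran from 3.04 to 4.48 for Klk7 and from 1.92 to 3.08 for Klk5. Centring each array on its median moved the median log2 ratio of all measured genes to -0.17, against 0.04 as reported. It also cut the share of 2-fold genes that were higher in early bulge to 41.0%, against 60.4%. Under that centring the log2 ratio was 4.26 for Klk7, 2.87 for Klk5 and 1.13 for Klk13, lower by about the same shift.

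**Figure D3:**
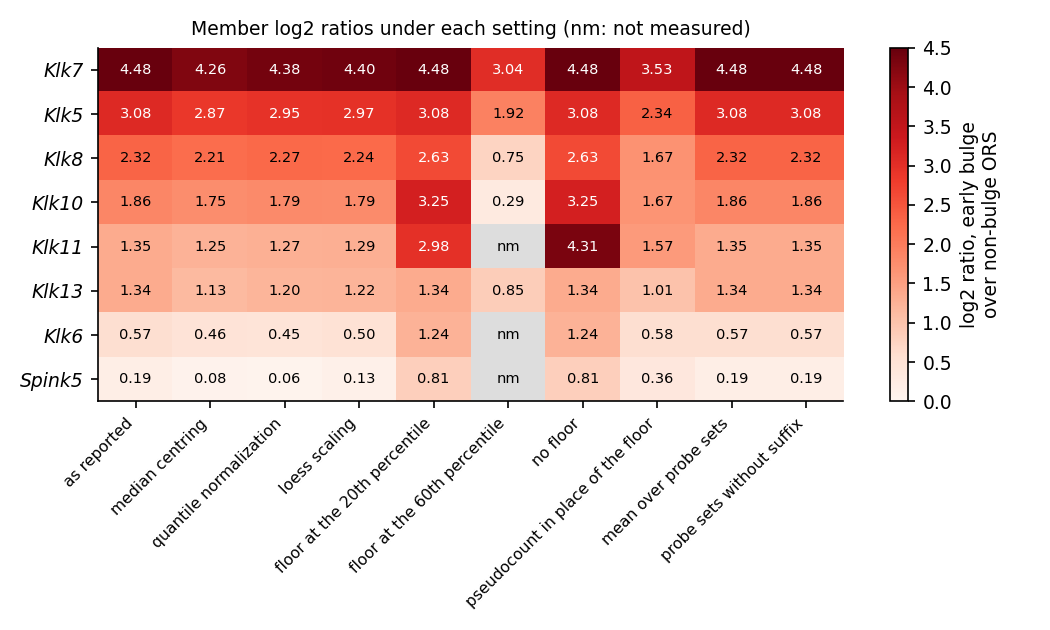
Log2 ratio, early bulge over ORS, of each member (rows) under the reported setting and 9 alternatives (columns), written in each cell and shaded from 0 to 4.5. Cells marked nm were below that setting's floor on both arrays; Klk7 and Klk5 stay above 1 in every column, and the column with the floor at the 60th percentile holds the smallest values of Klk5, Klk7, Klk8, Klk10 and Klk13, all lower bounds.

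The 8 listed kallikreins lie in a run of 10 kallikrein genes on mouse chromosome 7, in the order Klk14, Klk13, Klk12, Klk11, Klk10, Klk9, Klk8, Klk7, Klk6 and Klk5, and Spink5 lies on chromosome 18. Klk9 and Klk12 sit inside this run but are not members. Klk9 had a signal of 40.8 in early bulge, below the floor, and 69.7 in ORS, a log2 bound of -0.27, and Klk12 was below the floor on both arrays. Klk8 and Klk10, on either side of Klk9, had bounds of 4.99-fold and 3.62-fold. Klk6, which stands between Klk7 and Klk5, had a bound of 1.48-fold.

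Beyond the cluster, Ctu1, a tRNA-modifying enzyme gene next to Klk14, had a signal of 533.5 in early bulge and 585.8 in ORS, a log2 ratio of -0.13. Siglece, a sialic acid receptor of myeloid cells, was below the floor on both arrays, and Ceacam18 had a log2 bound of 0.57. On the other side Klk4, Klk1b8 and Klk1b1 were below the floor on both arrays, and no probe set for Klk15 alone was found. Of 18 other kallikrein genes in all, 12 had a probe set, and 10 of them were below the floor on both arrays. The others were Klk9, for which only the bound above can be given, and Klk1, which was less than 2-fold apart. Klk1 had a log2 ratio of -0.52, from signals of 537.0 in early bulge and 769.3 in ORS. It rests on 1 probe set of a type that can cross-hybridise with the near-identical Klk1b genes, and the 3 other Klk1 probe sets were below the floor.

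**Figure D4:**
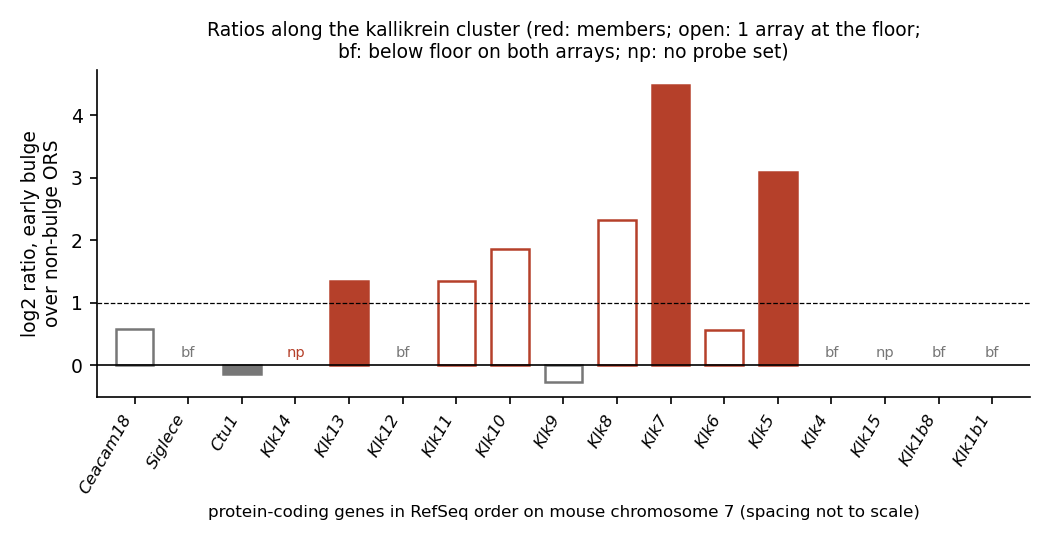
Log2 ratio, early bulge over ORS, of protein-coding genes in their RefSeq order along the kallikrein cluster of chromosome 7, with equal spacing. Red bars are members, grey bars other genes, open bars genes with 1 array at the floor, and bf and np mark genes below the floor on both arrays or with no probe set of their own; the bars of Klk7 and Klk5 flank the open bar of Klk6, a lower bound.

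The 250 bases before the annotated start sites were compared because Klk5, Klk7 and Klk13, the 3 members above the floor on both arrays, differed in ratio. The other members with a probe set had lower bounds only. The sequences are from RefSeq (GRCm38.p6) and all lie on the plus strand. They are shown for Klk7 (chr7:43811044-43811293), Klk5 (chr7:43842019-43842268) and Klk8 (chr7:43797327-43797576), which had the 3 largest ratios or bounds, and for Klk13 (chr7:43712317-43712566), which had the smallest ratio among those measured on both arrays. Capitals mark matches to the 7 motifs named below on either strand, and no 2 matches overlapped.
Klk7: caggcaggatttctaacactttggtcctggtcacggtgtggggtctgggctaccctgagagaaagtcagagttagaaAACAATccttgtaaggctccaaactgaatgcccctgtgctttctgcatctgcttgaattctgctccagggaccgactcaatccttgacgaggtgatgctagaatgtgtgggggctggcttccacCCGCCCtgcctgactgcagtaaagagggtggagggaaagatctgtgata
Klk5: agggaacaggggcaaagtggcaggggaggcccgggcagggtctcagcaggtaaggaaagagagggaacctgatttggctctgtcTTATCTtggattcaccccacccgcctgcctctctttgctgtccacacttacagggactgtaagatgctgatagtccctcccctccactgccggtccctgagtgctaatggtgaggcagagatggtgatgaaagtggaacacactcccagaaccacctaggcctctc
Klk8: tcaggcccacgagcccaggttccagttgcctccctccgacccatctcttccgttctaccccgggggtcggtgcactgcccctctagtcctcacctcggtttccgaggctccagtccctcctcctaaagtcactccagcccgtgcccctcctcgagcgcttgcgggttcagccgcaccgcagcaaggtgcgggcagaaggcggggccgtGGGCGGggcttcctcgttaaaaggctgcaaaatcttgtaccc
Klk13: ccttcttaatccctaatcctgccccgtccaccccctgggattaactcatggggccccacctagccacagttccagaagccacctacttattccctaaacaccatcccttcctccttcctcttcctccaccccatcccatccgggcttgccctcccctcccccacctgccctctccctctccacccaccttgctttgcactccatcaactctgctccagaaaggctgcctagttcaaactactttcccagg

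The searched motifs were the TATA box (TATAAA), the AP-1 motif (TGANTCA), the GC box (GGGCGG), the GATA motif (AGATAA), the SOX motif (AACAAT), a nuclear receptor half-site (AGGTCA) and a grainyhead-like motif with a central N, AACNGGTT. The 8 listed kallikreins, Klk14 among them, had 10 promoters in the table, and 32851 promoters of the same length made up the comparison. Klk7 held a GC box match that began 49 bases before its start site and a SOX match 173 bases before it. Klk8 held a GC box match 42 bases before its start. Klk5 held a GATA match 166 bases before its start, and Klk13 held no match. Among the promoters not shown, Klk6, with a bound of 1.48-fold, held GC box matches in each of its 2 promoters. Its first promoter also held a SOX match. Klk10 and Klk11, with bounds of 3.62-fold and 2.55-fold, held no match, and neither did Klk14.

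A GC box stood in 4 of the 10 kallikrein promoters, against 32.7% of all promoters. A SOX match stood in 2 of the 10, against 9.42%, and a GATA match in 1 of the 10, against 9.99%. No kallikrein promoter held the TATA, AP-1, half-site or grainyhead-like letters, which occurred in 12.4%, 6.75%, 14% and 1.79% of all promoters. The window of Klk8 had 18 CpG dinucleotides, while the other 9 kallikrein windows had between 0 and 7, beside a median of 6 over all promoters. These are letters in a window, and no binding was measured.

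Genes that act with the kallikreins were taken from lists made with earlier results of these arrays known. Each list count from here on stands beside 7.30% of all measured genes past 2-fold towards early bulge and 4.78% towards ORS. Among genes at the floor on the ORS array alone, 17.1% had a bound of at least 2-fold. Among 17 activating proteases, which include enzymes that can trim kallikrein precursors, 10 were measured, 4 were at least 2-fold higher in early bulge and none in ORS, with a median log2 ratio of 0.48 beside 0.04 over all measured genes. Pcsk6, a proprotein convertase, had signals of 1258 in early bulge and 333.2 in ORS, a 3.78-fold difference. Tmprss4, a membrane-bound serine protease, was at least 3.36-fold higher in early bulge, Prss22 was 2.31-fold and Prss8, which encodes prostasin, 2.04-fold higher. After median centring Prss22 and Prss8 had log2 ratios of 0.99 and 0.82, under the 2-fold line, as was Prss8 after quantile normalization, at 0.88, and after loess, at 0.89. St14, which encodes matriptase, an activator of epidermal kallikreins in mice, had signals of 1339 in early bulge and 1387 in ORS. St14, which is named after its value was seen, thus showed no such difference, with a log2 ratio of -0.05.

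Of 17 other serine protease inhibitors listed, 7 were measured and none was at least 2-fold higher in early bulge, while Spink2, a Kazal-type inhibitor related to Spink5, was at least 2.54-fold higher in ORS. The median log2 ratio was 0.16, and -0.37 over the 5 inhibitors left when all probe sets with the suffix a, s or x were dropped. Slpi, a secreted inhibitor of leukocyte proteases, had signals of 241.4 in early bulge and 477.6 in ORS, a log2 ratio of -0.98. Slpi passed the 2-fold line towards ORS after median centring, at -1.20, after quantile normalization, at -1.07, and after loess, at -1.05. Serpinb6a had a log2 ratio of 0.49. Spink8 had a bound of 0.61, and 1.07 towards early bulge with the floor at the 20th percentile or with none.

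Transcripts for kallikrein substrates and receptors were mixed in direction. Of 14 genes for substrates and receptors, 7 were measured and Cdsn alone was at least 2-fold apart, with a median log2 ratio of 0.51. Cdsn encodes corneodesmosin, the adhesive protein cut by Klk5 and Klk7, and had signals of 352.8 in early bulge and 90.1 in ORS, a 3.92-fold difference. The desmosomal cadherin genes Dsc1, Dsg1b and Dsg1a had log2 ratios of 0.80, 0.52 and -0.81. Another measured probe set of Dsc1 had a log2 ratio of 0.15. Dsg1a passed the 2-fold line towards ORS after median centring, at -1.03. Cdsn thus stood on the side of the kallikreins, and Dsg1a on the other.

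Other proteases and inhibitors of shedding epidermis included larger ratios than that of Klk7. Of 16 listed, 15 were measured, 4 were at least 2-fold higher in early bulge and 1 in ORS. The median log2 ratio was 0.70, and 0.03 over the 11 genes left without probe sets of the suffix a, s or x. Cst6, which encodes a secreted inhibitor of cathepsins, and Capns2, a small calpain subunit, had log2 ratios of 5.53 and 5.21. Asprv1, an aspartic protease that processes profilaggrin, had one of 1.45, and Htra1, a secreted serine protease, one of -1.19. Leaving out genes with either array at the floor, the log2 ratios nearest to the 4.48 of Klk7 were those of Fa2h, a fatty acid hydroxylase (4.45), Psapl1 (4.56), Tcim (4.25), Npnt, the matrix protein nephronectin (4.10), and the annexin Anxa8 (4.07).

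**Figure D5:**
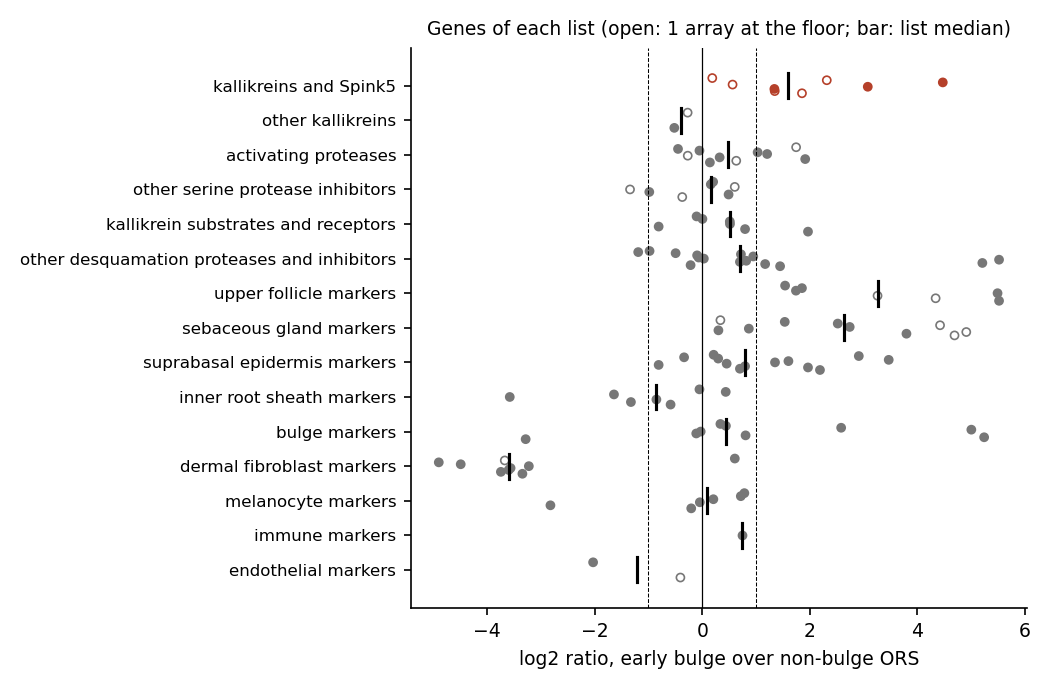
Log2 ratio, early bulge over ORS, of every measured gene in each list, 1 point per gene and open where 1 array was at the floor, with the list median as a black bar and 2-fold as dashed lines. The kallikreins and Spink5 (red, median 1.60, which rests on lower bounds) lie to the right of 0, as do the upper follicle and sebaceous gland markers. To the left lie 8 of 9 dermal fibroblast markers.

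Marker genes of upper follicle, sebaceous gland and suprabasal epidermis were also brighter in early bulge, and their part in the kallikrein ratios was not tested. All 7 upper follicle markers were at least 2-fold higher there by the probe set used, with a summed signal of 45476 in early bulge and 7085 in ORS and none at the floor in early bulge. Another measured probe set of Plet1 had a log2 ratio of 0.10. Gata6 had a bound of 3.26 on the set used, and 1.22 and 1.69 on others. The median log2 ratio of this list was 3.26, and 2.06 with the mean over probe sets. Krt79, a keratin of the upper follicle, and Defb6, a defensin, had log2 ratios of 5.50 and, as a bound, 4.35. Of 15 suprabasal epidermis markers 13 were measured, and 6 were at least 2-fold higher in early bulge and none in ORS. Their median log2 ratio was 0.80, and 1.21 over the 11 left without probe sets of the suffix a, s or x. The summed signal of these 13 was 26648 in early bulge and 8706 in ORS. Krtdap, Sbsn and Calm4 had log2 ratios of 3.47, 2.91 and 2.19, whereas Lor, which encodes loricrin, had one of -0.34, and Flg, which encodes filaggrin, and Krt2 were below the floor on both arrays. Lor, Flg and Krt2 are defining genes of late differentiation and are named after their values were seen. Cdsn, Dsc1, Dsg1a, Casp14 and Flg stand both among these markers and in a list above, and Cst6 stands among the upper follicle markers too.

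Of 10 sebaceous gland markers 7 were at least 2-fold higher in early bulge, with a summed signal of 26465 in early bulge and 7456 in ORS. Far2, Cidea and Pparg, all at the floor in ORS, had log2 bounds of 4.92, 4.70 and 4.43. Among 9 bulge markers 3 were at least 2-fold higher in early bulge and 1 in ORS, with a median log2 ratio of 0.44. The summed signal was 40659 in early bulge and 22560 in ORS. Krt15, named after its value was seen, gave 18018 of the early bulge sum and 10296 of the ORS sum. Foxc1 and Nfatc1 had log2 ratios of 5.25 and 5.01, and Cd34 one of -3.29.

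Most markers of dermal fibroblasts and inner root sheath were brighter in ORS, and their part in the kallikrein ratios was not tested. Of 9 measured dermal fibroblast markers 8 were at least 2-fold higher in ORS by the probe set used, with a summed signal of 16653 in early bulge and 62556 in ORS. For Pdgfra and Dcn this depended on the probe set. Pdgfra had a bound of -3.67 on the set used, and -0.43 and -0.08 on others. Dcn had -3.23 on the set used and -0.21 on another. Lum, Dpt and Col1a2 had log2 ratios of -4.90, -4.49 and -3.75, and Postn, the other marker, had one of 0.61. Of 7 inner root sheath markers 3 were at least 2-fold higher in ORS, with a summed signal of 9870 in early bulge and 23954 in ORS, and Krt28, Krt71 and Krt25 had log2 ratios of -3.58, -1.64 and -1.33. Tchh had one of -0.05 and Krt73 one of 0.44, and they and Postn are named after their values were seen. The 6 melanocyte markers had a median log2 ratio of 0.08, with Kit at -2.82, Tyrp1 at 0.78 and Tyr at 0.72. Another measured probe set of Kit had a log2 ratio of -0.91. Of 6 immune markers Cd74 alone was measured, at 0.75, and of 5 endothelial markers Tek and Kdr were, at -2.03 and, as a bound, -0.41, while the defining endothelial genes Pecam1 and Cdh5 were below the floor on both arrays.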

How the data were processed

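RNA of the 2 sorted samples was labelled as biotinylated cRNA for an Affymetrix expression array, per the labels' protocols. The deposited table holds a linear intensity for each probe set. The submitters' processing notes name MAS5 and Affymetrix Expression Console. The 2% trimmed mean was 500.0 on both arrays. Of 45101 probe sets, 34945 that were not controls had 1 gene symbol, 932 had several and 9160 had none in the platform annotation. A gene was represented by its probe set of highest mean log2 signal, and signals under the floor were set to it before the ratio was taken. Symbols absent from the annotation were matched through RefSeq genes (GRCm38.p6), which also gave gene order. Detection calls, scanner files and the genome build of the array were not used here.

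The members and the lists were chosen with earlier results of these data known. Named were all members, up to 4 genes of each pathway list and 3 of each marker list with the largest absolute ratio, the 5 genes above the floor on both arrays nearest to Klk7 by ratio, the kallikreins within the cluster and the nearest 3 neighbours with a probe set on each side. Klk15, which has none, is named for the order only. Alternatives were median centring, quantile normalization, loess (span 0.4), no floor, a floor at the 20th or the 60th percentile and a pseudocount of 64. The others were the mean over probe sets, and probe sets without the suffix a, s or x. The ratio procedure was tested on simulated data. Python 3.11.15, pandas 2.3.3 and statsmodels 0.14.6 were used.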

Additional observations from a re-analysis of the deposited data

How the results depend on the processing

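The number of members at least 2-fold higher in early bulge was 6 or 7 under 8 of the alternatives and 2 of 5 measured with the floor at the 60th percentile. None was at least 2-fold higher in ORS under any. The mean over probe sets and the use of probe sets without suffix could change neither count, as no member had a 2nd probe set. Lowering the floor to the 20th percentile gave a members' median log2 ratio of 2.80, beside 2.85 without a floor and 0.85 with the floor at the 60th, and between 1.4993 and 1.6170 under the others, beside 1.6038 as reported. At the 60th percentile, 171.8, the ORS signal of every member lay below the floor and 3 members dropped out, so 0.85 is a median of 5 lower bounds. The reported 1.6038 rests on lower bounds too. It lies between the bounds of Klk10, 1.86, and Klk11, 1.35, and 5 of the 8 members were at the floor on the ORS array. Over all genes, 968 of 13252 measured were at least 2-fold higher in early bulge and 634 in ORS as reported. At the 20th percentile these counts were 1870 in early bulge and 984 in ORS, of 16376 measured. Without a floor they were 2731 in early bulge and 1601 in ORS, of 18193. With the floor at the 60th they were 616 in early bulge and 426 in ORS, of 10076. After median centring they were 707 in early bulge and 1017 in ORS, of 13213. Signals near the TrpnX controls limit the ratios of Klk10 and Klk11, and those of Klk6 and Spink5 lie near the floor. No paired analysis was possible because each population had 1 array.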

Other observations

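Klk4, which encodes the protease of maturing tooth enamel, was below the floor on both arrays, with signals of 50.02 in early bulge and 5.13 in ORS. Klk1b8 likewise had signals of 40.6 in early bulge and 8.24 in ORS. Flg had signals of 56.1 in early bulge, just under the floor, and 1.15 in ORS. These values were chosen after they were seen, and no ratio is given for them.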
